A study of Mus musculus with 4 samples.

Results

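A set of 10 genes whose proteins open pores in membranes, break the plasma membrane or set off that rupture were read in dendritic cells (DCs) of mice that could or could not lose Il33 in CD11c-expressing cells. They were chosen by name: Mpeg1, Prf1, Gsdmd, Gsdme, Ninj1, Mlkl, Ripk3, Casp1, Casp4 and Pycard, out of 46078 gene rows in the deposited count table. Earlier results of these data were known when they were chosen. All 10 passed the filter on low counts, which kept 14995 rows. The 4 libraries came from mouse cells of spleen and mesenteric lymph node, sorted as CD45+, CD11b+, CD103+, MHC class II+ and CD64-. Ctrl (2 libraries) carried the CD11c-cre transgene alone, and Il33flx (2 libraries) carried CD11c-cre with loxP-flanked Il33 on both chromosomes. Every animal, Ctrl included, had been injected with EL4-Flt3 tumour cells 10 days earlier, and no group without tumour cells or without Cre was among the libraries. The CD11c promoter drives Cre in DCs and in some macrophages and other myeloid cells. Whether replicate libraries stem from different animals is not in the labels, so a p-value here weighs a difference against the spread of these libraries alone, some of which may be technical.

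Perforin-2, the product of Mpeg1, belongs to the same family of ring-forming proteins as perforin (Prf1) and the terminal complement proteins. It is abundant in macrophages and some DCs, sits in phagosomes and attacks engulfed bacteria. In pyroptosis, inflammasome sensors assemble the adaptor ASC (Pycard) and activate caspase-1 (Casp1), while caspase-11 (Casp4 in the mouse) binds bacterial lipopolysaccharide in the cytosol. These caspases cut gasdermin D, whose freed part forms pores through which IL-1beta leaves the cell, and ninjurin-1 (Ninj1) then tears the plasma membrane. In necroptosis, the kinase RIPK3 phosphorylates MLKL, which permeabilizes the membrane.

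Libraries held 67707682 to 81217828 gene counts. Levels are given as CPM, read counts scaled to library size with the trimmed mean of M-values (TMM). The targeted gene, Il33, had 4 and 8 counts in the Ctrl libraries against 4 and 0 in the Il33flx libraries, where a count of 0 allows up to 0.0424 CPM, so it did not check the labels at this depth. The genes of the gate were read in every library, with Ptprc (CD45) at 563 to 1012 CPM, Itgam (CD11b) at 97.8 to 128 CPM and Itgae (CD103) at 56.8 to 116 CPM, while Fcgr1, the gene of CD64, was at 3.66 to 5.50 CPM. Itgax, the CD11c gene from which the Cre promoter was taken, had 647 and 517 CPM in Ctrl and 359 and 407 CPM in Il33flx. It was lower in both Il33flx libraries, with a log2 fold change of -0.60 ± 0.19 (SE; edgeR, adjusted p = 0.995, unadjusted p = 0.0182) and of -0.42 without Ctrl 1. Ctrl 1 stood apart. The first principal component, 65.2% of the variance of log2(CPM + 1), put Ctrl 1 at -42.2 and the other 3 libraries at 10.8 to 16.2. Log2 fold changes without Ctrl 1 therefore stand beside the members and lists whose sign they change. That fit leaves 1 Ctrl library, so it holds no spread within Ctrl, and no p-value from it is given.

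Mpeg1 had the largest difference between the groups of the 10 genes, with less RNA in both Il33flx libraries, but it did not pass the main test. Its level was 885 CPM in Ctrl 1, 1407 CPM in Ctrl 2, 404 CPM in Il33flx 1 and 345 CPM in Il33flx 2. Both Il33flx libraries lay below both Ctrl libraries, and the lower Ctrl library was still 2.19-fold above the higher Il33flx library. The groups averaged 1146 ± 370 CPM and 375 ± 42.0 CPM (SD, n = 2 each), so Ctrl was 3.06-fold higher. The fitted log2 fold change of Il33flx over Ctrl was -1.61 ± 0.26 (SE), and its 95% interval ran from -2.24 to -0.99. The edgeR quasi-likelihood test gave it an adjusted p = 0.636 over all genes tested (unadjusted p = 0.000608). By unadjusted p, Mpeg1 ranked 14 of 14995 genes, and 113 genes had a more negative log2 fold change.

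No member, Mpeg1 included, passed the adjusted threshold of 0.05 in edgeR with all 4 libraries and the group as the only term. That test called 0.00667% of all genes higher and 0% lower. At an unadjusted p below 0.05 stood 1 of the 10 members, Mpeg1, beside 1.24% of all genes in the lower direction and 2.02% in the higher. DESeq2 on the same counts called 1 of the 10, again Mpeg1 (log2 fold change -1.63, adjusted p = 7.40e-05), where it called 0.14% of all genes lower, and limma-voom called 0. Without Ctrl 1, the log2 fold change of Mpeg1 was -1.90. Over the alternatives with all libraries, the adjusted p of Mpeg1 ran from 7.40e-05 (DESeq2) to 0.957 (edgeR with library size alone). Over all alternatives, its log2 fold change ran from -1.90 to -1.25. In the authors' deposited table Mpeg1 had a log2 fold change of -1.64 and an adjusted p of 5.99e-05, at rank 17 of 15001 listed genes by p-value.

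**Figure D1:**
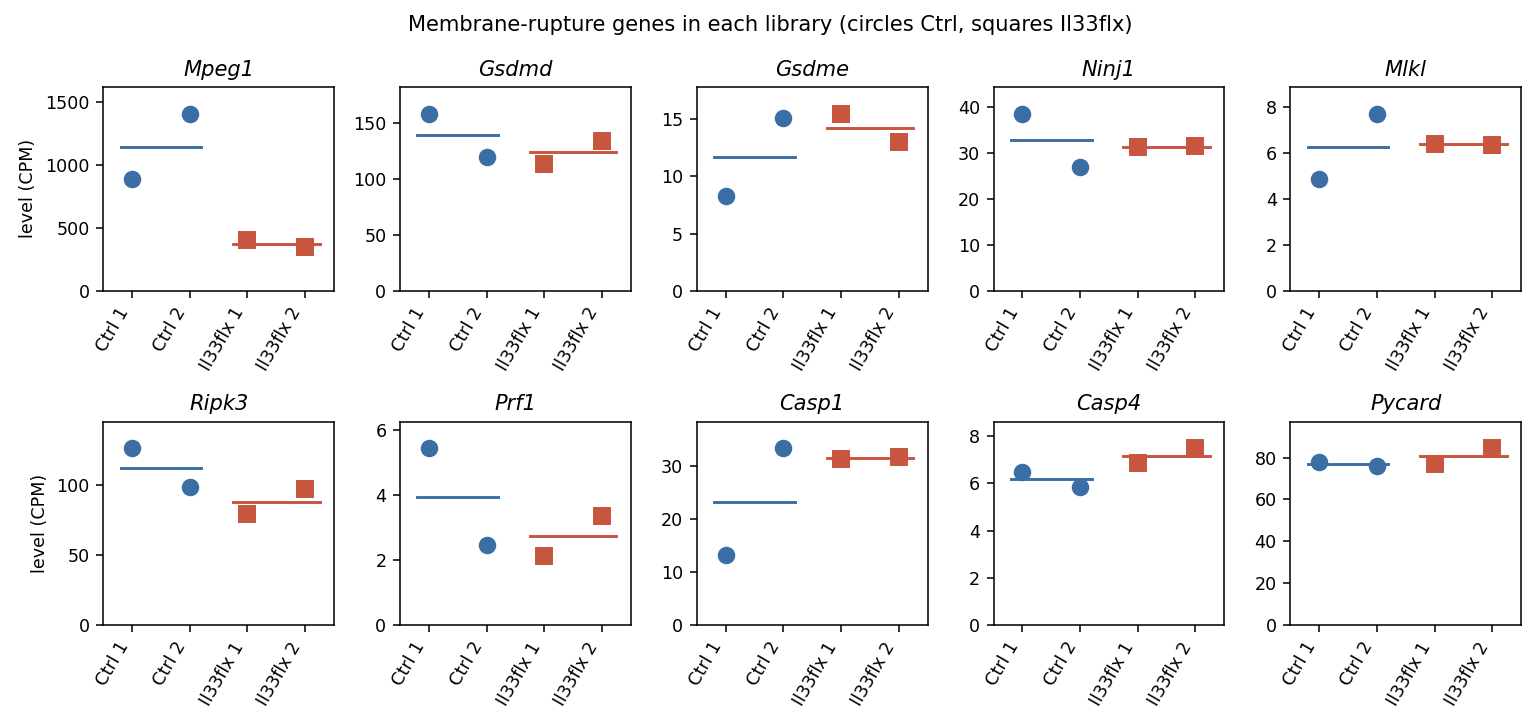
Level of each gene in CPM (vertical axes, each from 0) in the 4 libraries; circles are Ctrl, squares are Il33flx and lines are group means of 2 libraries. Mpeg1 has 885 and 1407 CPM in Ctrl against 404 and 345 CPM in Il33flx, while the Ctrl libraries of Casp1, at 13.2 and 33.4 CPM, enclose both Il33flx libraries.

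Mpeg1 (ENSMUSG00000046805) spans 12460779 to 12465283 of chromosome 19 (GRCm38, plus strand) and overlaps no other annotated gene. Il33 is on the same chromosome, 17.5 Mb away. Of 16 other protein-coding genes within 300 kb of Mpeg1, 3 passed the filter and 0 had an unadjusted p below 0.05. The nearest, Dtx4, which encodes a ubiquitin ligase of the Deltex family, lies 1.05 kb from Mpeg1 on the opposite strand. It had 66.4 and 51.1 CPM in Ctrl and 56.0 and 56.5 CPM in Il33flx, so its groups overlapped, with a log2 fold change of -0.06 ± 0.21 (SE; adjusted p = 0.995, edgeR). Fam111a, a protease gene, had 22.7 and 57.5 CPM in Ctrl against 54.8 and 53.9 CPM in Il33flx. Pfpl, a gene related to Mpeg1 that lies 28.7 kb away, was near the detection limit at 0.195 and 0.213 CPM in Ctrl and 0.142 and 0 CPM in Il33flx (adjusted p = 0.995, edgeR).

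The 250 bases upstream of the annotated start are shown for Mpeg1, the member with the widest spread of levels, and for Pycard, the member with the narrowest. They are from RefSeq (GRCm38.p6), which matched 9 of the 10 members, all but Gsdmd. Letters run 5′ to 3′ on each gene's strand, at chr19:12460520-12460769 for Mpeg1 (plus) and chr7:127993868-127994117 for Pycard (minus), and capitals mark a match to the motif of PU.1, an ETS factor of myeloid cells.
Mpeg1: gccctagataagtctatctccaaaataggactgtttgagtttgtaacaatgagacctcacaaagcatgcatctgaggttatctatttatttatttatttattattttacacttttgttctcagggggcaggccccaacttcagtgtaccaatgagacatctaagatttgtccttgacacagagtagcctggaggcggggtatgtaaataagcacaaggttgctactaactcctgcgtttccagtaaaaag
Pycard: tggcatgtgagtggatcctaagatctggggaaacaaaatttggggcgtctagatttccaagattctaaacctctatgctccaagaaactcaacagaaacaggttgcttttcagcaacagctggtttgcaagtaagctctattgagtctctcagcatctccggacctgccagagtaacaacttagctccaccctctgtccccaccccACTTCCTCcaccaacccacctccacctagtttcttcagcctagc
On both strands of windows reaching 50 bases past the start, 6 motifs were searched: PU.1 (GAGGAAGT), the ETS core within it (GGAAGT), the STAT site GAS (TTCNNNGAA), AP-1 (TGANTCA), the E-box CACGTG and TATAAA. Among 32851 such windows, the share with a match ran from 3.2% for PU.1 to 23.8% for the ETS core. The Mpeg1 window held none of the 6. The Pycard window held the PU.1 motif on the strand opposite the gene, so the printed capitals are its reverse complement, and their first base is at position -44 from the start. The ETS core was in the windows of 4 members (Pycard, Casp4, Prf1 and Ripk3) and the E-box in those of 2 (Casp1 and Ripk3), where 7.15% of all windows held it. These matches describe letters only and are not binding sites.

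Because perforin-2 is a macrophage gene product and the gate removes CD64-positive cells, Mpeg1 was set beside macrophage and monocyte genes. Itgax, given above, was likewise lower in both Il33flx libraries, and its part in the Mpeg1 result was not tested. In bulk libraries, fewer cells of a type and less RNA per cell cannot be told apart. The 24 macrophage and monocyte markers summed to 2262 and 2011 CPM in Ctrl and to 2229 and 2102 CPM in Il33flx, so the groups overlapped. All 24 were tested, none was at 0 in every library, 0 were called by edgeR, DESeq2 or limma-voom, and their median log2 fold change was -0.02, beside 0.01 over all genes tested. Without Ctrl 1 that median was 0.16, beside 0.02 over all genes. Higher without overlap of the groups were 6 of the 24 (25%), Cd14, Spic, Marco, Trem2, Mrc1 and Timd4, where 15.4% of all genes were, and 1 was lower, where 14.9% were. Lyz2, the lysozyme gene, had 1113 and 917 CPM in Ctrl and 1060 and 1045 CPM in Il33flx. Csf1r, the receptor for macrophage colony-stimulating factor, had 247 and 176 CPM in Ctrl and 225 and 199 CPM in Il33flx. Adgre1, which encodes F4/80, had 69.3 and 54.6 CPM against 76.1 and 63.2 CPM. None of these 3 split the libraries as Mpeg1 did. Cd14, a lipopolysaccharide co-receptor picked out after its values were seen, was the marker with an unadjusted p below 0.05 with all libraries, and it was higher in Il33flx by 0.61 ± 0.19 (SE) on the log2 scale (adjusted p = 0.995, edgeR). Axl, a receptor for dying cells also picked out afterwards, was the marker lower in both Il33flx libraries, at 28.0 and 23.2 CPM against 42.9 and 28.8 CPM. Without Ctrl 1, log2 fold changes were 0.57 for Cd14, 0.83 for Mrc1 and -0.87 for Ccr2, a chemokine receptor gene of monocytes. These were also picked out after their values were seen.

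**Figure D2:**
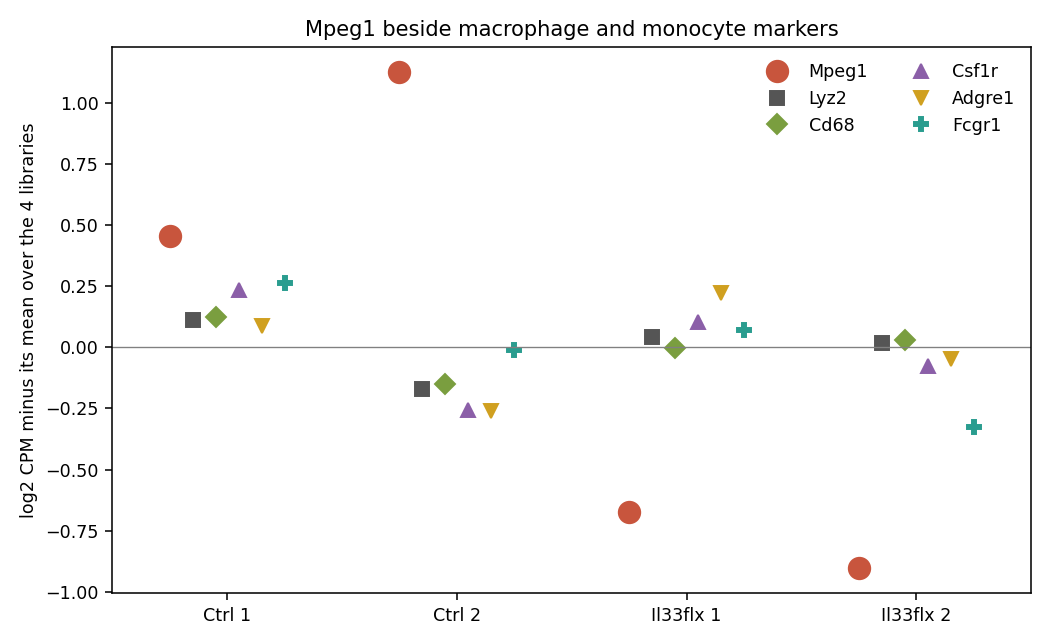
Log2 CPM of Mpeg1 (large circles) and of 5 macrophage and monocyte markers in each library, minus each gene's own mean over the 4 libraries. Mpeg1 is above its mean in both Ctrl libraries and below it in both Il33flx libraries, whereas Lyz2 (917 to 1113 CPM) and Csf1r (176 to 247 CPM) stay near their means.

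Markers of B cells, neutrophils and erythroid cells summed to higher means in Il33flx. Of these, edgeR with all libraries called 0, limma-voom called 0, and DESeq2 called 4 B cell and 1 erythroid marker, where it called 0.213% of all genes higher. Without Ctrl 1, the fit that called Mpeg1 lower, edgeR called 4 neutrophil markers (Mpo, Elane, Prtn3 and Ctsg), 1 B cell marker (Ebf1) and 2 erythroid markers (Car1 and Slc4a1) higher, where it called 0.12% of all genes higher. Their log2 fold changes in that fit ran from 1.97 for Prtn3 to 4.63 for Slc4a1. The 10 B cell markers summed to 62.7 and 64.6 CPM in Ctrl and to 134 and 112 CPM in Il33flx, the 14 neutrophil markers to 458 and 463 CPM against 818 and 579 CPM, and the 11 erythroid markers to 34.6 and 18.0 CPM against 62.4 and 32.9 CPM, where only the erythroid sums overlapped. In the B cell list 10 of 10 tested genes were higher without overlap of the groups, in the neutrophil list 6 of 14 and in the erythroid list 8 of 11, where 15.4% of all genes were. In none of these lists was a marker at 0 in every library. Their part in the Mpeg1 result was not tested. Markers of type 1 DCs summed to 6647 and 6207 CPM in Ctrl and to 5402 and 5798 CPM in Il33flx, those of type 2 DCs to 868 and 866 CPM against 970 and 918 CPM, and those of plasmacytoid DCs to 208 and 209 CPM against 267 and 182 CPM. The type 1 sums were lower and the type 2 sums higher in both Il33flx libraries, while the plasmacytoid sums overlapped. Of the type 1 sums, Irf8 alone made 4817 and 3946 CPM in Ctrl and 3346 and 3819 CPM in Il33flx. Xcr1, also in that list, had 506 and 841 CPM against 800 and 798 CPM. Lower without overlap were 2 of 8 type 1 markers (25%) and higher 0, where 14.9% and 15.4% of all genes were. Of 10 type 2 markers, 2 (20%) were higher and 0 lower. From both lists edgeR called 0 with all libraries.

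The protein-coding genes whose levels followed Mpeg1 most closely were Fkbp5, Sult1a1, Tmed7, Wdr11 and Sik1. Likeness was the straight-line distance between profiles of log2(CPM + 1) over the 4 libraries, each centred on its own mean, among 9112 genes of at least 5 CPM. Distances were 0.850 for Fkbp5 to 0.968 for Sik1. Fkbp5, a co-chaperone of the glucocorticoid receptor, had 75.4 and 92.3 CPM in Ctrl and 50.6 and 46.3 CPM in Il33flx. Tmed7, which encodes a cargo receptor of the early secretory pathway, had 52.5 and 88.1 CPM in Ctrl and 32.1 and 46.3 CPM in Il33flx. Within Ctrl, Fkbp5, Tmed7 and Sik1 were higher in Ctrl 2, as Mpeg1 was. Sult1a1 (41.3 and 34.8 CPM in Ctrl 1 and Ctrl 2) and Wdr11 (97.6 and 96.2 CPM) were higher in Ctrl 1. All 5 were lower in both Il33flx libraries, which the choice by likeness fixes, and their log2 fold changes of -1.01 to -0.67 were smaller in size than that of Mpeg1. With 4 libraries such a list is a description of these samples.

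Prf1, which encodes the perforin of natural killer (NK) and cytotoxic T cells, was at a low level without a split by group. It had 5.43 CPM in Ctrl 1, 2.46 CPM in Ctrl 2, 2.14 CPM in Il33flx 1 and 3.36 CPM in Il33flx 2. Ctrl 1 was the highest library and the other 3 mixed across groups. The log2 fold change was -0.52 ± 0.47 (SE), with an interval of -1.66 to 0.62 (adjusted p = 0.995, edgeR), and without Ctrl 1 it was 0.17. The 16 NK and cytotoxic T cell markers, Prf1 among them, summed to 272 and 305 CPM in Ctrl and to 275 and 284 CPM in Il33flx. Of these 16, 8 rose and 8 fell in Il33flx, and edgeR called 0. Lower without overlap of the groups were 4 (25%) and higher 2 (12.5%), beside 14.9% and 15.4% of all genes. The 3 most abundant, Klrk1, Ccl5 and Klrd1, had overlapping groups and differed by 0.21, -0.45 and 0.70 on the log2 scale. Ncr1, which defines NK cells, had 0.784 to 1.12 CPM with overlapping groups. Cd3e, a T cell receptor subunit, was among the 4 lower. It had 14.0 and 10.8 CPM in Ctrl against 9.11 and 6.69 CPM in Il33flx (adjusted p = 0.995, edgeR). Nearest to Prf1 in profile were Gm8797, Srxn1, Chpf, Cd63 and Baiap2 (distances 0.111 to 0.226), each with its highest level in Ctrl 1.

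Both gasdermins lacked a difference that the libraries could separate. Gsdmd had 158 CPM in Ctrl 1, 120 CPM in Ctrl 2, 113 CPM in Il33flx 1 and 134 CPM in Il33flx 2, with overlapping groups. Its log2 fold change was -0.17, with an interval of -0.67 to 0.34 (adjusted p = 0.995, edgeR), and 0.06 without Ctrl 1. Gsdme, whose protein is cut by caspase-3, had 8.25 CPM in Ctrl 1 and 15.1, 15.5 and 13.0 CPM in the other 3 libraries. The low value of Ctrl 1 set the sign of its log2 fold change, which was 0.29 (interval -0.51 to 1.09) with all libraries and -0.07 without Ctrl 1. Ninj1 had 38.5 CPM in Ctrl 1, 26.9 CPM in Ctrl 2 and 31.2 and 31.4 CPM in the Il33flx libraries, which lay between the Ctrl libraries. Its log2 fold change was -0.06 (interval -0.63 to 0.51), and 0.23 without Ctrl 1.

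The necroptosis pair did not pass the test in either direction. Ripk3 had 126 CPM in Ctrl 1, 98.5 CPM in Ctrl 2, 79.4 CPM in Il33flx 1 and 96.8 CPM in Il33flx 2. Both Il33flx libraries were lower, by a margin of 1.02-fold between the nearest libraries. Together with Mpeg1 this made 2 of the 10 members lower without overlap, where 14.9% of all genes were, and 1 of 10, Casp4, higher, where 15.4% were, shares near the background. The log2 fold change of Ripk3 was -0.35 ± 0.21 (SE), with an interval of -0.85 to 0.16 (adjusted p = 0.995, edgeR), and -0.15 without Ctrl 1. Mlkl had 4.86 CPM in Ctrl 1, 7.72 CPM in Ctrl 2 and 6.42 and 6.35 CPM in the Il33flx libraries, again between the Ctrl values. Its log2 fold change was 0.02 (interval -0.74 to 0.78), and -0.27 without Ctrl 1.

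Among the inflammasome members, Pycard was the most even gene of the 10. It had 78.1, 75.7, 77.1 and 84.4 CPM in Ctrl 1, Ctrl 2, Il33flx 1 and Il33flx 2, and its highest library was 1.11-fold above its lowest, against 4.08-fold for Mpeg1. The interval of its log2 fold change, -0.35 to 0.49, was the narrowest of the 10. Exons of Pycard overlap those of Gm45205, a gene model on the opposite strand, and without a stated strand setting their reads cannot be told apart. Casp1 had 13.2 CPM in Ctrl 1 and 33.4, 31.4 and 31.7 CPM in the other 3 libraries, so it was low in Ctrl 1 alone. Its log2 fold change was 0.44 (interval -0.56 to 1.43) with all libraries and -0.08 without Ctrl 1. Casp4, its neighbour on chromosome 9, had 6.48 and 5.86 CPM in Ctrl and 6.86 and 7.48 CPM in Il33flx. Its groups did not overlap, but the log2 fold change was 0.22 with an interval of -0.41 to 0.84 (adjusted p = 0.995, edgeR).

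**Figure D3:**
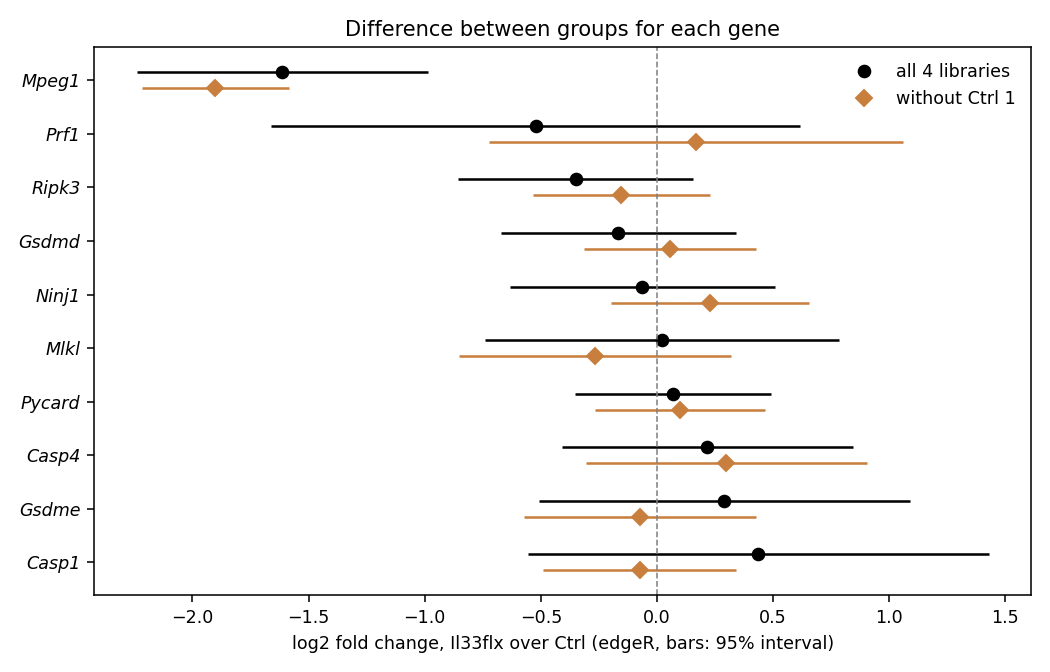
Log2 fold change of Il33flx over Ctrl for each gene, with its 95% interval from edgeR, for all 4 libraries (circles) and without Ctrl 1 (diamonds). The fit without Ctrl 1 leaves 1 Ctrl library, so its bars hold no spread within Ctrl. The Mpeg1 interval of -2.24 to -0.99 excludes 0, the other 9 include 0, and 6 genes lie on opposite sides of 0 in the 2 fits.

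The members varied among the libraries largely as other genes did. Ctrl 1 was the highest or lowest of the 4 libraries for 7 of the 10 members, which is close to the 70.3% found over all genes tested. Mpeg1, Casp4 and Pycard were the exceptions. For Mpeg1 the extremes were Ctrl 2 and Il33flx 2. Summed without Mpeg1, the other 9 members came to 439 and 385 CPM in Ctrl and to 363 and 409 CPM in Il33flx, with overlapping groups. Over all 10 members, 5 log2 fold changes were positive and 5 negative, and the median was -0.02 beside 0.01 for all genes tested.

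Per kilobase of exon, which allows levels of different genes to be compared, Mpeg1 led in every library. It had 204 and 325 CPM per kilobase in Ctrl and 93.3 and 79.6 CPM per kilobase in Il33flx, which placed it at ranks 177 and 101 among all genes tested in the Ctrl libraries and at 424 and 566 in the Il33flx libraries. Gsdmd (47.7 to 66.6 CPM per kilobase) and Ripk3 (34.6 to 55.0) followed, and their ranges overlapped. Pycard (19.9 to 22.2), Ninj1 (17.1 to 24.5) and Casp1 (8.84 to 22.3) overlapped one another and lay apart from Ripk3. The remaining members were lower, with Mlkl at 2.11 to 3.35, Casp4 at 1.58 to 2.02, Prf1 at 0.828 to 2.10 and Gsdme at 0.647 to 1.22 CPM per kilobase. The ranges of Casp4 and Prf1 overlapped, as did those of Prf1 and Gsdme. Gsdme depended on the length used: by its longest transcript in place of all annotated exons it averaged 2.80 and not 1.02 CPM per kilobase, and Casp4 averaged 3.51 and not 1.80.

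**Figure D4:**
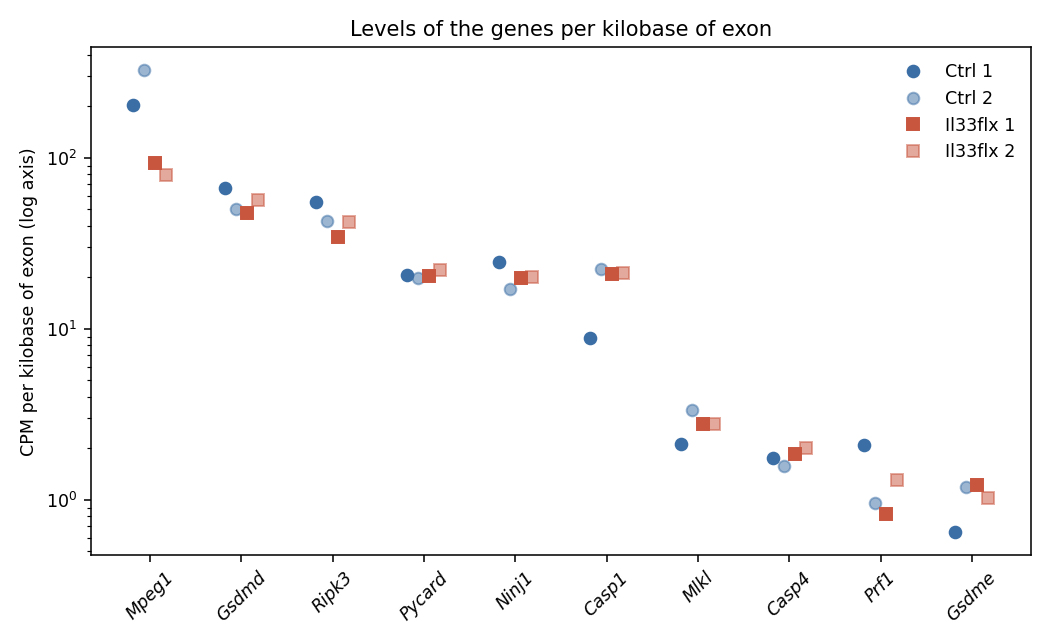
CPM per kilobase of exon (log axis) of the 10 genes in each library, ordered by the mean; circles are Ctrl and squares Il33flx. Mpeg1 is highest in every library, at 204 and 325 in Ctrl and 93.3 and 79.6 in Il33flx, still above Gsdmd at 47.7 to 66.6.

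Other genes of these pathways were read from lists, also drawn up with earlier results of these data known. With all libraries, 0 of them were called in either direction by edgeR, DESeq2 or limma-voom. Of 15 other gasdermin and pore protein genes 3 were tested: C6, Pjvk and C8g, at 0.505 to 5.13 CPM. Counts of Gsdmc, C7 and C9 were 0 in all libraries. Ninj2, the relative of Ninj1, had 1 to 10 counts per library.

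Of 21 matched inflammasome sensor and caspase genes, 20 were tested, 16 lay above 0 and 4 below 0 in log2 fold change, and 0 had an unadjusted p below 0.05 with all libraries. Of all 14995 genes tested, 7771 lay above 0 and 7224 below 0. The median of the 20 was 0.09, and 0.05 without Ctrl 1. Nlrp1b, a sensor that proteolysis activates, had 5.67 and 7.62 CPM in Ctrl and 10.5 and 8.77 CPM in Il33flx, and 3 of the 20 genes were higher without overlap (15%), close to the 15.4% of all genes. Mefv, which encodes the sensor pyrin, had 19.6 and 14.8 CPM against 24.0 and 18.5 CPM. Its log2 fold change was 0.31, and 0.54 without Ctrl 1. Gbp2, a guanylate-binding protein that acts at bacterial membranes, had 54.0 and 27.2 CPM against 36.3 and 22.9 CPM.

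The inflammasome cytokines were abundant through Il1b, which had 328 CPM in Ctrl 1, 442 CPM in Ctrl 2, 488 CPM in Il33flx 1 and 649 CPM in Il33flx 2. Both Il33flx libraries were higher, by 0.56 ± 0.23 (SE) on the log2 scale (edgeR, adjusted p = 0.995, unadjusted p = 0.0479). With all libraries Il1b was the cytokine of this list with an unadjusted p below 0.05 in edgeR, and DESeq2 found none at that level. Il18 had 6.19 CPM in Ctrl 1 and 19.6, 14.1 and 14.2 CPM in the other 3 libraries, low in Ctrl 1 as Casp1 was. Its log2 fold change was 0.13 with all libraries and -0.47 without Ctrl 1. The 5 tested genes of the list were Il1a, Il1b, Il18 and the inhibitor genes Il1rn (IL-1 receptor antagonist) and Il18bp (IL-18-binding protein). With all libraries, all 5 had positive log2 fold changes. Their median was 0.53, the value of Il1rn, and 0.15 without Ctrl 1.

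Of 17 necroptosis regulators, all tested, 5 lay above 0 and 12 below 0 in log2 fold change, beside 7771 and 7224 of all genes. Their median was -0.10, and -0.05 without Ctrl 1, and 0 had an unadjusted p below 0.05 with all libraries. Traf2, an adaptor of tumour necrosis factor receptors, had 133 and 99.5 CPM in Ctrl and 96.0 and 99.3 CPM in Il33flx. It was 1 of 4 lower without overlap (23.5% of the 17, beside 14.9% of all genes), as were Tnfrsf1a, Ticam1 and Pgam5, named after their values were seen. Tlr3, a sensor of double-stranded RNA also named after its values were seen, had a log2 fold change of -0.22 with all libraries and -0.49 without Ctrl 1. Tnf, whose protein can start necroptosis, had 15.7 CPM in Ctrl 1 and at most 8.90 CPM in the other 3 libraries.

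Of 19 tested genes of membrane repair and resistance to pores, 8 lay above 0 and 11 below 0 in log2 fold change (median -0.03, and 0.02 without Ctrl 1). Serpinb1a, an inhibitor of neutrophil proteases, had 30.7 and 30.6 CPM in Ctrl and 40.9 and 50.5 CPM in Il33flx. It was the gene of that list with an unadjusted p below 0.05 and differed by 0.58 ± 0.20 (SE) on the log2 scale (edgeR, adjusted p = 0.995, unadjusted p = 0.0275). Of 15 tested cytotoxic granule genes, 7 were positive and 8 negative, with a median of -0.06, which was 0.11 without Ctrl 1. Gzmk, a granzyme gene, was the gene of that list with an unadjusted p below 0.05 in edgeR with all libraries. DESeq2 found none at that level. Gzmk had 33 and 21 counts in Ctrl and 9 and 2 in Il33flx, at no more than 0.430 CPM in any library. Its log2 fold change was -2.16 (edgeR, adjusted p = 0.995, unadjusted p = 0.0479). Lamp1, a lysosomal membrane protein gene, had 271 and 274 CPM in Ctrl and 201 and 230 CPM in Il33flx. The groups of Lamp1 differed by -0.34 ± 0.17 (SE) on the log2 scale (edgeR, adjusted p = 0.995, unadjusted p = 0.0888), and by -0.34 without Ctrl 1.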

How the data were processed

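Poly(A) RNA-seq gene counts of 4 libraries were used, with groups taken from the sample titles. The deposited counts were whole reads per gene, not normalized by the authors; the submitters' processing notes name GRCm38, Trimmomatic 0.39, STAR, HTSeq and DESeq2. The versions of the last 3, the annotation release and the strand setting are not given in the sources used here. In the deposited DESeq2 table, per-library signal is the count divided by 1 size factor, the log2 columns hold the authors' fold change and standard error, the score column is their Wald statistic, and the p-value columns are the authors' own.

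The 5 summary rows of the count table named no gene and were left out; 69.9% to 72.2% of counted reads per library were in genes and 21.9% to 23.1% did not align uniquely. The groups were compared in edgeR 4.0.16 (R 4.3.3) with the quasi-likelihood F test after filterByExpr and TMM, with Benjamini-Hochberg adjustment over 14995 genes. Alternatives used DESeq2 1.42.0 and limma 3.58.1 (voom), other scalings and filters, a replicate block, and each library left out. The scripts were tested on simulated counts. Each standard error is the size of the fitted log2 difference over the root of its F statistic, and intervals use the t distribution of the fit. The biological coefficient of variation was 28.6%. Limits from counts cover counting error only. Coordinates and exon lengths are from GENCODE M21 (GRCm38), matched by Ensembl identifier for 45229 rows. From each pathway list up to 4 tested genes with the smallest unadjusted p were named, and from each cell type list up to 3 with the highest level, beside defining markers. Of the genes so chosen, the ones given are those beside which a member is read. The members and lists were chosen with earlier results of these data known.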

Additional observations from a re-analysis of the deposited data

How the results depend on the processing

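The count of genes called depended on the processing. Unblocked and with all libraries, edgeR called 1 gene higher and 0 lower, also with median-ratio size factors and with a filter of 1 CPM in 2 libraries. It called 0 higher with library size alone, with no filter and with limma-voom, and DESeq2 called 32 higher and 21 lower. Calls are not given for the fits with 1 library left out, which leave 1 library in a group. With the replicate number as a block, 19 genes were higher and 14 lower, and 1 of the 10 members, Mpeg1, was called (log2 fold change -1.58, adjusted p = 0.0164, edgeR). That fit also called 1 neutrophil marker, Elane, and 2 erythroid markers, Car1 and Slc4a1. Same-numbered libraries deviated from their group means with a correlation of -0.11 across genes. With 2 libraries per group, crossing the numbers only reverses the sign of this value. It therefore cannot decide whether same-numbered libraries are paired, which the labels do not say. With the numbers crossed, a choice made after seeing the data, 0 genes were called higher and 0 lower. Of the 10 members, 0 were called by the unblocked edgeR test of all libraries, and 1, Mpeg1, with the block and with DESeq2. The log2 fold change of Mpeg1 was -1.90 without Ctrl 1, -1.25 without Ctrl 2, -1.73 without Il33flx 1 and -1.48 without Il33flx 2. Without Ctrl 1 and without Ctrl 2, the leave-out fits that lay farthest apart, log2 fold changes were 0.058 and -0.36 for Gsdmd, -0.073 and 0.78 for Gsdme, 0.23 and -0.30 for Ninj1, -0.27 and 0.39 for Mlkl, 0.17 and -0.99 for Prf1, and -0.075 and 1.25 for Casp1, so these 6 turned sign without Ctrl 1. Ninj1 also turned with library size alone (0.022). The causes were not tested. Mpeg1, Ripk3, Casp4 and Pycard kept their sign in all 12 alternatives.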
